A study of Homo sapiens with 12 samples.

Results

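Gene expression was compared between HK-2 cells given a treatment labelled Fk for 48 h and cells given its control vehicle for 48 h. HK-2 is an established, immortalized human cell line derived from the epithelium of the renal proximal tubule. The comparison was defined by the array titles alone and took 6 of the 12 arrays of the series, 3 of Fk at 48 h and 3 of control at 48 h. The other 6 arrays, 3 of Fk and 3 of control at 12 h, served to set the gene filter and as a second time. Both 48 h groups were the same unmodified cell line, seeded 24 h before treatment and near confluence, and differed in the labels by Fk against vehicle. The labels do not expand the name Fk, and a dose was not used here. The 3 arrays per group are given as biological replicates, and how the cultures were kept apart is not said, so p-values measure the spread between these arrays, which may be partly technical. A line grown alone on plastic is a limited model of the tubule, and RNA of a whole culture cannot tell fewer expressing cells from less RNA per cell.

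Proximal tubular cells reabsorb most of the filtrate, take up glucose and proteins from it, and secrete drugs. Several programmes read out here are known for their role in such cells. Hypoxia-inducible factors (HIF) switch on glucose uptake, glycolysis and collagen hydroxylation when oxygen is low. Sterol regulatory element binding proteins (SREBP) switch on cholesterol and fatty acid synthesis when membrane sterol is low. Transforming growth factor beta (TGF-beta) is stored on latent binding proteins and drives matrix deposition. Iron uptake by the transferrin receptor is set by the cell's iron status.

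Values were the deposited log2 GCRMA signals, and 10784 of 19775 genes were tested, each by 1 probe set. Array medians ran from 2.85 to 2.94 and upper quartiles from 6.90 to 7.16 over the 12 arrays. Of 20 proximal tubule markers on the array, 4 (DPP4, SLC4A4, CDH6 and PAX8) reached a log2 signal of 4 on all 6 arrays, and 15, among them LRP2, CUBN, SLC34A1 and AQP1, stayed below it on all 6. The same level was reached on all 6 arrays by 0 of 6 loop and distal tubule markers, 1 of 9 collecting duct markers (AQP2), 2 of 4 podocyte markers (SYNPO and PODXL), 1 of 7 endothelial markers (EGFL7), 3 of 8 fibroblast and pericyte markers (COL1A1, DCN and LUM) and 0 of 5 leukocyte markers. The summed fibroblast markers ran from 9.86 to 11.02 on the Fk arrays and from 9.73 to 11.03 on the control arrays, so those ranges overlapped. On the first principal component of all 12 arrays, which held 55.4% of the variance, the Fk arrays of replicates 1, 2 and 3 lay at 56.1, 34.3 and 13.3 and the control arrays at 51.2, 36.4 and 10.2. Same-numbered arrays lay close together on this component, and differences within a replicate number are given beside the group differences. Among the 12 h arrays, Fk replicate 3 stood apart on the second component (-66.4 against 9.0 to 14.7 for the other 12 h arrays), so values at 12 h are given with and without it.

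SLC16A14, an orphan member of the monocarboxylate transporter family, was the gene that passed the test. It was 1 of 10784 genes (0.00927%) with an adjusted p under 0.05 in limma with Benjamini-Hochberg adjustment. Its log2 signal was 5.23, 4.99 and 5.29 on the Fk arrays and 2.50, 2.32 and 2.61 on the control arrays. Every Fk array lay above every control array, and the control arrays lay below the level of 4 used as the filter, at or under the array medians. The gene thus entered the test through Fk arrays, where it is high. Its log2 fold change in the test was 2.69 ± 0.14 (SE, n = 3 per group; 95% interval 2.36 to 3.03; limma, adjusted p = 0.0102). Since the control signal may be background, its small spread (SD 0.14) may be that of background too. The size, the interval and the adjusted p are therefore uncertain. Against the level of 4 the Fk mean was higher by 1.17 log2 units. Within replicates 1, 2 and 3 the difference was 2.73, 2.66 and 2.68. One probe set measured the gene, which lies on chromosome 2 (GRCh38.p14, 230034982 to 230068924). The call ended when any 1 of the 6 arrays was left out (adjusted p from 0.0782 to 0.145) although the fold change stayed between 2.62 and 2.78, and it ended when all 12 arrays shared 1 estimate of the spread (adjusted p = 0.692) or when no filter was used (adjusted p = 0.0707). In that shared fit without Fk replicate 3 at 12 h, the array that stood apart, the adjusted p was 1.11e-04. Of 16 listed genes of the family and its chaperones, 9 had a probe set naming 1 gene and 6 were tested, SLC16A14 among them. The log2 fold change was above 0 for 5 of the 6, SLC16A14 included and SLC16A7 only barely, and the median was 0.28. BSG, a chaperone of some members of the family, had a log2 fold change of 0.53 ± 0.22. It read 10.75, 10.89 and 10.71 on the Fk arrays against 9.97, 10.09 and 10.72 on the control arrays, which overlapped. EMB, another chaperone, had 0.48, while SLC16A4, SLC16A5 and SLC16A7 had 0.08, -0.15 and 0.00.

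**Figure D1:**
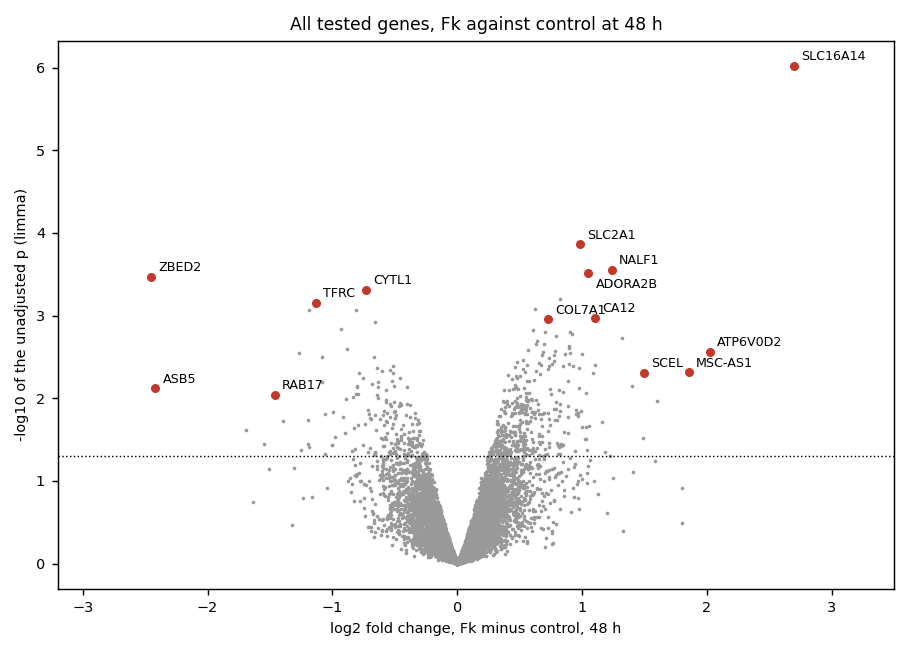
Each grey point is 1 of the 10784 tested genes, with the log2 fold change of Fk minus control at 48 h on the x axis and -log10 of the unadjusted limma p on the y axis; the dotted line is a p of 0.05, and named genes are red. SLC16A14 sits alone at the upper right with a log2 fold change of 2.69, and ZBED2 and ASB5 lie farthest to the left at -2.45 and -2.42.

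Over all genes, an unadjusted p under 0.05 was reached by 554 (5.14%), 374 higher in Fk (3.47%) and 180 lower (1.67%), where a share of 0.05 would be 539.2 genes. The share of higher genes among them was 67.5%, and it was 53.8% (272 against 234 genes) after centring each array on its median and 56.0% (289 against 227) after quantile normalization. With the replicate number as a block in limma, an unadjusted p under 0.05 was reached by 1300 genes, 798 higher and 502 lower. The number passing the adjusted threshold was again 1. The 3 Fk arrays lay wholly above the 3 control arrays for 662 genes (6.14%) and wholly below them for 434 (4.02%). These counts were 487 above and 597 below after median centring, and 539 and 546 after quantile normalization. The excess of higher genes thus depended on the normalization. A difference of at least 0.3 log2 units with 1 sign within every replicate number was seen for 282 genes higher (2.61%) and 148 lower (1.37%). The median log2 fold change of all tested genes was 0.018, and a gene's 95% interval reached 0.44 log2 units to either side in the median. The values below, other than those of SLC16A14, are descriptions of genes that did not pass the adjusted threshold.

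The genes with the largest higher signals in Fk cultures included the antisense transcript MSC-AS1, the histone demethylase KDM7A (1.60) and the Wnt receptor FZD7. For SCEL, which encodes sciellin, a precursor of the cornified envelope, the Fk arrays read 10.06, 9.83 and 8.95 and the control arrays 8.55, 7.73 and 8.07. The groups did not overlap, and the log2 fold change was 1.5 ± 0.35 (limma, adjusted p = 0.801). MSC-AS1 stood at 6.33, 5.14 and 5.43 in Fk and 4.53, 3.41 and 3.39 in control, a log2 fold change of 1.85 ± 0.43. Control replicates 2 and 3 lay below the filter level and may be background, so this size is uncertain. All the Fk arrays lay above that level, so MSC-AS1 could enter the test through them, where it is high. The separation of its groups may therefore be partly selected. Replicate 1 of MSC-AS1 was the highest array of both groups. Much tighter was NALF1, a subunit of the sodium leak channel NALCN complex, at 6.99, 6.75 and 7.14 in Fk against 5.86, 5.47 and 5.84 in control (1.24 ± 0.17, adjusted p = 0.73), although its second probe set gave 0.48. ADORA2B, a low-affinity adenosine receptor, read 7.95, 7.85 and 7.85 against 7.01, 6.90 and 6.58, a log2 fold change of 1.05 ± 0.14 (adjusted p = 0.73) with the 3 Fk arrays close together. SOX9, a transcription factor of tubular repair, had 5.80, 6.55 and 7.84 in Fk and 5.25, 5.64 and 5.64 in control, a log2 fold change of 1.22 that was largest within replicate 3 (2.20). SLC44A2, a choline transporter, PLK3, a stress kinase, and SPAG4, a nuclear envelope protein, had log2 fold changes of 1.10, 1.08 and 1.03. For PLK3 another probe set gave 0.16.

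On the lower side, ZBED2, a zinc finger transcription factor, stood at 2.65, 3.01 and 3.55 in Fk and 5.32, 5.11 and 6.14 in control. The groups were separated by more than 1 log2 unit, and the Fk arrays lay below the filter level; the log2 fold change was -2.45 ± 0.34 (95% interval -3.29 to -1.62; limma, adjusted p = 0.73), and the control mean lay 1.52 above that level. ASB5, a substrate adaptor of a ubiquitin ligase, read 2.97, 4.23 and 5.40 against 6.13, 7.12 and 6.61 (-2.42 ± 0.62), with the smallest difference within replicate 3 (-1.21). UCA1, a long non-coding RNA first known from bladder tumours, had 7.44, 8.10 and 8.42 against 9.07, 9.30 and 9.39, a log2 fold change of -1.27 ± 0.26. RERG, a growth-inhibiting RAS-like GTPase, had 7.15, 7.16 and 6.92 against 8.41, 8.52 and 7.87 (-1.19 ± 0.20), and its second probe set gave -1.38. The other genes of the 12 largest differences in this direction were RAB17 (-1.46), which sorts membrane in epithelial cells, the pseudogene ZBED10P (-1.40), SMTNL2 (-1.19), TFRC (-1.13), CNNM1 (-1.09), the caveolar coat protein CAVIN2 (-1.09), the centrosomal protein CEP19 (-1.06) and SLITRK4 (-1.0). CYTL1, a secreted cytokine-like protein, differed by less but with little spread, at 6.36, 6.22 and 6.18 against 7.04, 7.01 and 6.92 (-0.73 ± 0.11).

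**Figure D2:**
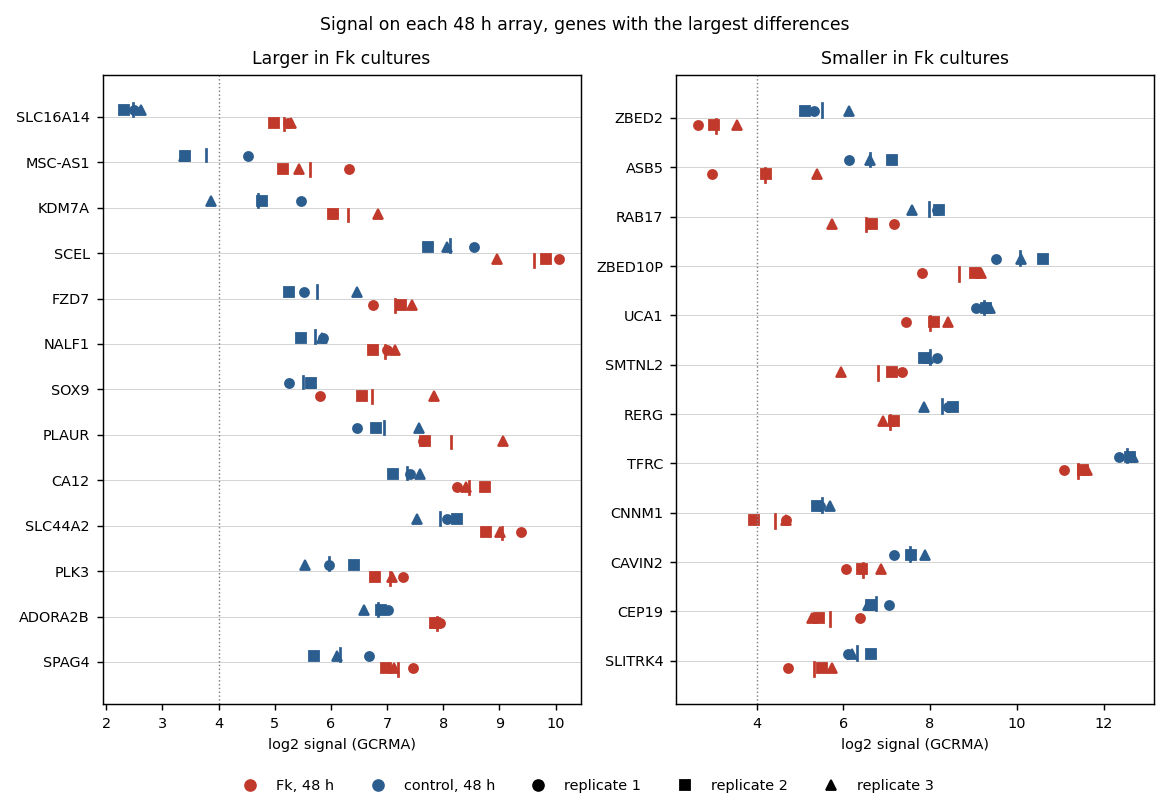
The log2 signal on each of the 6 arrays at 48 h is on the x axis, with Fk in red, control in blue, the marker shape giving the replicate number and a short vertical line the group mean; the dotted line is the filter level of 4. SLC16A14 and the 12 largest higher genes are on the left and the 12 largest lower genes on the right, and for each of them the red and blue arrays do not overlap, which the rule for choosing the 24 genes required.

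The HIF targets had a positive median within each replicate number, and none of them passed the test. Of 26 tested, 24 had a log2 fold change above 0 (53.8% of all genes did), 10 had Fk arrays wholly above the control arrays (6.14% of all genes) and 0 wholly below (4.02%), and 18 had a positive difference within every replicate number (20% of all genes). The list median was 0.29, and 0.20, 0.18 and 0.45 within replicates 1, 2 and 3. SLC2A1, the glucose transporter GLUT1, read 9.88, 9.85 and 10.11 on the Fk arrays and 8.98, 8.97 and 8.94 on the control arrays. The control arrays barely differed from each other, and the groups lay well apart; the log2 fold change was 0.98 ± 0.12 (95% interval 0.70 to 1.27; limma, adjusted p = 0.73), the smallest p after SLC16A14. CA12, a carbonic anhydrase at the cell surface, had 8.24, 8.75 and 8.41 in Fk and 7.41, 7.10 and 7.58 in control (1.10 ± 0.19), and 4 further probe sets of the gene at or above the filter level gave 1.55 to 2.02. The collagen prolyl hydroxylase P4HA2 had 11.50, 11.15 and 11.14 against 10.68, 10.18 and 10.34 (0.86 ± 0.18), and P4HA1 had a log2 fold change of 0.82 ± 0.24. NDRG1, a hypoxia and stress response gene, had 11.88, 11.10 and 11.03 against 10.96, 10.20 and 9.79 (1.02 ± 0.37). Not every classic target was higher: VEGFA, the angiogenic factor, and INSIG2, a sterol sensor partner, each had a log2 fold change of -0.04.

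The lists that follow share genes with the HIF list or with each other. The glycolysis list, which shares SLC2A1 and PFKFB3 with the HIF list, had a median of 0.12 over 19 genes. Of these, 17 were above 0 (53.8% of all genes were), but the median within replicate 3 was -0.01. It was 0.07 without Fk replicate 3 or control replicate 2 and 0.27 without control replicate 3. ENO2, an enolase, had a log2 fold change of 0.53 ± 0.21. The hexokinase HK2 had 0.68 ± 0.14 by its brightest probe set and -0.11 to 0.06 by its others. Collagen hydroxylases and lysyl oxidases had a median of 0.14 over 18 genes, 16 above 0 (0.06 without control replicate 2). This list shares P4HA1, P4HA2, PLOD2 and LOX with the HIF list. The prolyl 3-hydroxylase P3H3 had 0.42 ± 0.17. The glucose-sensing arrestins and MondoA partners, a list that shares HK2 with glycolysis, had a median of 0.20 over 9 genes, 8 above 0 (0.32 without control replicate 2). TXNIP, the arrestin that restrains glucose uptake, had differences of 1.76, 0.58 and -0.47 within replicates 1, 2 and 3, so no direction was shared.

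Cholesterol synthesis had a negative median within each replicate number, and no gene of it passed the test. Of 19 genes of this list, 18 had a log2 fold change below 0 (46.2% of all genes did), and 15 had a negative difference within every replicate number (15.9% of all genes). Fk arrays lay wholly below the control arrays for 1 gene (4.02% of all genes), and the arrays of a group spread widely. The median was -0.43, and -0.36, -0.67 and -0.28 within replicates 1, 2 and 3, and it was -0.24 without Fk replicate 1. MVK, mevalonate kinase, had 6.84, 7.19 and 7.59 in Fk and 7.42, 8.53 and 8.68 in control (log2 fold change -1.0 ± 0.38), and 2 other probe sets gave -0.51 and -0.43. Its groups overlapped, but within each number the Fk array was the lower one, by 0.58, 1.34 and 1.09. ACAT2, which forms acetoacetyl-CoA, had differences of -0.91, -1.11 and -0.24, and SQLE, squalene epoxidase, -0.61, -0.74 and -0.18. HMGCS1, which makes HMG-CoA, had -0.37, -0.85 and -0.54, and the lanosterol synthase LSS -0.32, -0.89 and -0.28. NSDHL, a sterol dehydrogenase, was the gene whose groups did not overlap, at 9.48, 9.37 and 9.23 against 9.56, 10.13 and 9.81. INSIG1, which holds SREBP in the endoplasmic reticulum and is itself an SREBP target, had -0.90, -0.82 and 0.04. The regulator SREBF2 had a log2 fold change of -0.07 and the sterol carrier STARD4 0.01.

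**Figure D3:**
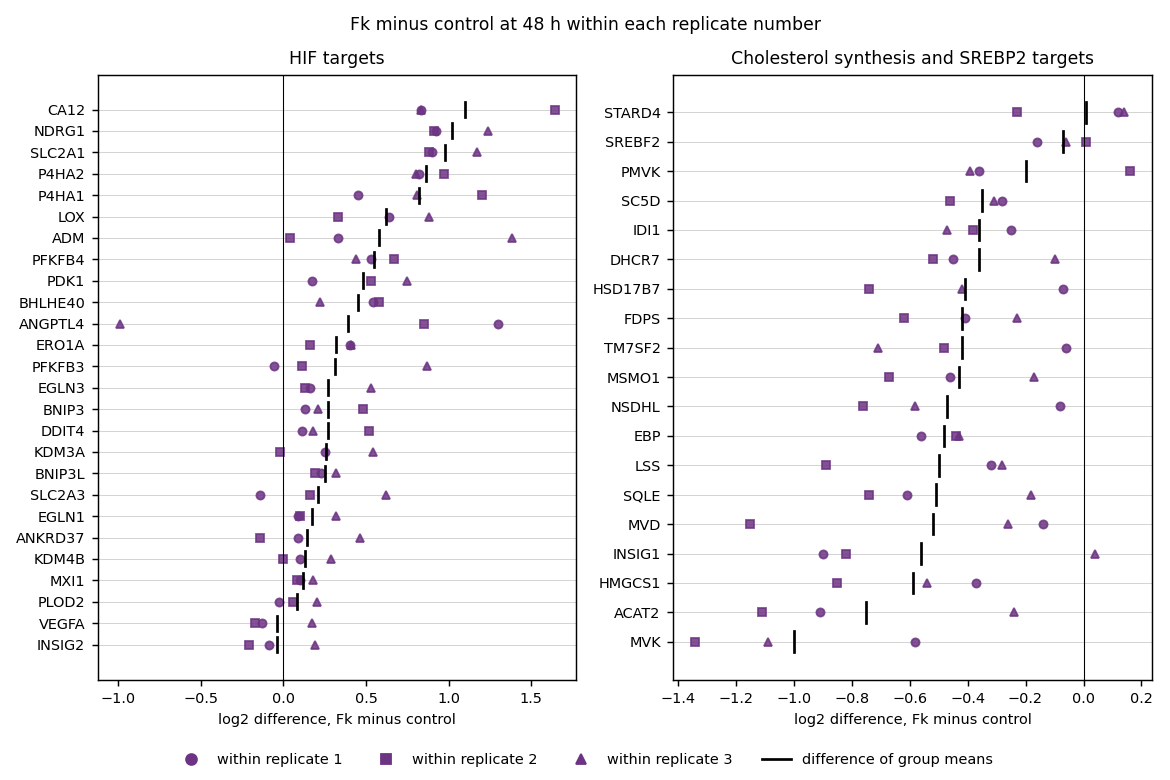
For each tested HIF target (left) and each tested gene of cholesterol synthesis (right), the x axis gives the log2 difference of Fk minus control at 48 h within replicate 1 (circle), 2 (square) and 3 (triangle), and the black bar gives the difference of the group means. Most HIF targets lie to the right of 0 and 18 of 26 do so in every replicate number, while 15 of 19 cholesterol genes lie to the left in every number.

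Fatty acid synthesis had a median of -0.23 over 13 genes, 10 of them below 0. That median was -0.03 without Fk replicate 1, -0.07 without control replicate 3, -0.15 without control replicate 2 and -0.45 without control replicate 1. ACSL1, which activates long-chain fatty acids, read 11.84, 12.31 and 12.13 in Fk against 12.63, 12.92 and 13.10 in control, and the groups did not overlap (-0.79 ± 0.18). LXR targets and cholesterol export, the programme for high sterol, had a median of 0.04 over 9 genes, with ABCA1 at 0.19 and NPC1 at 0.10. Fatty acid oxidation had a median of -0.03 over 17 genes, and ACADM, the medium-chain dehydrogenase, had -0.34 ± 0.10. Oxidative phosphorylation had a median of -0.03 over 31 genes, with COX5A at -0.18 and NDUFB8 at -0.14.

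Iron handling did not shift as a whole (median -0.04 over 21 genes, 8 above and 13 below 0), but it held a gene with small spread. TFRC, the transferrin receptor that brings iron into the cell, read 11.09, 11.52 and 11.62 in Fk and 12.35, 12.61 and 12.67 in control. Every Fk array lay below every control array, by 1.26, 1.09 and 1.06 within the replicate numbers, and the log2 fold change was -1.13 ± 0.18 (95% interval -1.57 to -0.69; limma, adjusted p = 0.801). Other probe sets of the gene disagreed, giving -1.12 to 0.18. The ferric reductase STEAP2 had differences of 0.87, 1.06 and 1.36, and STEAP3, the reductase of the transferrin cycle, 0.59, 1.10 and 0.50. The iron exporter SLC40A1 had 0.88, 1.55 and 0.09, and the ferritin light chain FTL -0.04 between group means.

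So that upstream sequence can be read beside the values, the promoters of 3 genes whose arrays did not overlap are shown. These promoters come from the HIF and iron handling lists. Each is the 250 bases before the gene start in RefSeq (GRCh38.p14), 5′ to 3′ on the gene's strand. Capitals mark ACGTG or GCGTG, the core of hypoxia response elements, and CCAAT, the NF-Y box, on either strand. SLC2A1 is at chr1:42958869-42959118, CA12 at chr15:63381847-63382096 and TFRC at chr3:196082091-196082340, all on the minus strand.
SLC2A1: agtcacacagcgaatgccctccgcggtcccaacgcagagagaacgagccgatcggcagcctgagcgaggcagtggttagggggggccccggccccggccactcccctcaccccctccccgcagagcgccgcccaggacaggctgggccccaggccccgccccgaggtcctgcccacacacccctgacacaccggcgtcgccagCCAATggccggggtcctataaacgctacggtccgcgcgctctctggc
CA12: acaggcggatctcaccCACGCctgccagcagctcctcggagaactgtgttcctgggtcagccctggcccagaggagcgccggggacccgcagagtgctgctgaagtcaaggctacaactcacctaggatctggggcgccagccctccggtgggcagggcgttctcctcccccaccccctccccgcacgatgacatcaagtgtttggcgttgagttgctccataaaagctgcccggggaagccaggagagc
TFRC: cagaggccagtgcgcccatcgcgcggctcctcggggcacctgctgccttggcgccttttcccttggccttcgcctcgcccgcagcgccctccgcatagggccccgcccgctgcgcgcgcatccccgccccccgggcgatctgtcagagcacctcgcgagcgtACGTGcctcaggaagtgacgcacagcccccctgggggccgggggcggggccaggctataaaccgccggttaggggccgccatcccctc

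In these windows SLC2A1 held 1 CCAAT box, starting 47 bases before the gene start. CA12 held a GCGTG core on the opposite strand and TFRC an ACGTG core. TCACNCCAC, the shortened sterol response element searched on both strands, was found in none of these windows. The shares that follow are over the same window before the 1 start per gene that the promoter table gives, which for a gene with several transcripts can lie inside the gene. CCAAT was present in 15 of 17 promoters of the cholesterol list (88.2%), against 35.7% of promoters of tested genes and 32% of all 35116 promoters. TCACNCCAC was present in 1 of the 17 (5.88%), against 0.818% and 0.883%. A hypoxia core of either form was present in 17 of 22 promoters of the HIF list (77.3%), against 58.8% of promoters of tested genes and 43.2% of all. Matches of the hypoxia cores on opposite strands can overlap, and each promoter was counted once. A match is a stretch of letters and not a measured binding site.

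Genes of the TGF-beta system, from ligands to targets, had a median of 0.22 over 27 genes, 22 of them above 0. Within replicates 1, 2 and 3 the median was 0.15, 0.45 and 0.43, and it ran from 0.13 without Fk replicate 3 to 0.42 without Fk replicate 1 and 0.40 without control replicate 3. Fk arrays lay wholly above control arrays for 6 of the 27 (6.14% of all genes). TGFB1, a ligand, had 10.55, 10.10 and 9.75 in Fk and 9.61, 9.04 and 9.30 in control (0.82 ± 0.25), and did not overlap. LTBP3, which anchors the latent ligand, had 7.52, 7.05 and 7.39 against 6.69, 6.34 and 6.60 (0.77 ± 0.17), but other probe sets of LTBP3 gave 0.10 to 0.13. LTBP2 had differences of 1.11, 1.40 and 0.47. Among targets, PMEPA1, which dampens SMAD signalling, had 9.76, 10.15 and 10.47 against 9.13, 9.34 and 9.22 (0.90 ± 0.20). TGFBI, a secreted adhesion protein, had 0.78 ± 0.24, and the inhibitory SMAD6 had 0.65 ± 0.23. Other well-known targets did not share this: CCN2 had differences of 0.14, 0.54 and -0.77, and SMAD3, a signal transducer, -0.64, 1.34 and -0.69.

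Extracellular matrix genes had a median of 0.26 over 21 genes, 17 above 0, with 8 whose Fk arrays lay wholly above the control arrays (6.14% of all genes) and 16 with a positive difference within every number (20%). COL7A1, the anchoring fibril collagen, read 9.57, 9.82 and 9.53 in Fk against 8.84, 8.90 and 9.00 in control. Its arrays were tight and apart, with a log2 fold change of 0.73 ± 0.13, and a second probe set gave 0.94. The basement membrane proteins NID1 and LAMB1 had 0.59 ± 0.16 and 0.39 ± 0.13, and LAMB3 and AGRN had 0.59 and 0.54. COL6A2 had 0.60 ± 0.18 by its brightest probe set and -0.13 by another. Integrins, which bind this matrix, had a median of 0.20 over 10 genes, 9 above 0 (0.13 without Fk replicate 3). ITGA3, the laminin-binding alpha subunit, had 12.57, 12.44 and 12.45 against 11.70, 11.99 and 12.08 (0.56 ± 0.14). ITGB3 had 0.37 ± 0.13 and ITGB5 had 0.60 ± 0.24. ITGB8 was the exception at -1.17, -0.49 and -0.03 within the numbers. The urokinase system and proteases had a median of 0.15 over 11 genes, with values from 0.06 without Fk replicate 3 to 0.29 without control replicate 3. Its urokinase PLAU had differences of 0.89, 0.98 and 0.85, and the receptor PLAUR 1.18, 0.88 and 1.5, with 0.20 to 1.14 between group means from the other PLAUR probe sets. Epithelial junction genes had a median of -0.06 over 20 genes. JUP, the junction protein plakoglobin, was lower on all Fk arrays, 8.58, 8.63 and 8.66 against 8.76, 9.16 and 9.10 (-0.38 ± 0.14), and the desmosomal PKP2 differed by -0.04, -1.74 and -0.76.

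Immediate early genes and ERK feedback inhibitors had a median of 0.25 over 29 genes, 22 above 0 (0.10 without control replicate 1). FOSL1, an AP-1 subunit, had differences of 0.80, 1.36 and 0.94 but overlapping groups. KLF4, a growth-arrest factor, read 10.01, 10.13 and 10.71 in Fk against 9.18, 9.82 and 8.94 in control, and IER3 12.52, 12.95 and 12.88 against 12.07, 12.22 and 12.05, both without overlap (0.97 ± 0.29 and 0.67 ± 0.15). JUNB had 0.68 ± 0.22, the ERK inhibitor SPRY4 0.80 ± 0.29 and the ERK-driven ETV5 0.55 ± 0.17. EGR1 differed by 2.42, -1.08 and -0.24 within the numbers, the widest spread of the list. The Wnt list had a median of 0.19 over 24 genes, 21 above 0, with 0.08 without control replicate 1, 0.10 without Fk replicate 3 and 0.12 without Fk replicate 2. AXIN1, the scaffold of the destruction complex, had 5.00, 5.20 and 5.19 against 4.28, 4.47 and 4.18 (0.82 ± 0.13), and FZD7 had 6.75, 7.24 and 7.45 against 5.52, 5.26 and 6.46 (1.40 ± 0.35). The ligand WNT5B had differences of 0.30, 0.46 and 0.75, and MYC, a target, 0.42, 0.36 and 0.72.

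**Figure D4:**
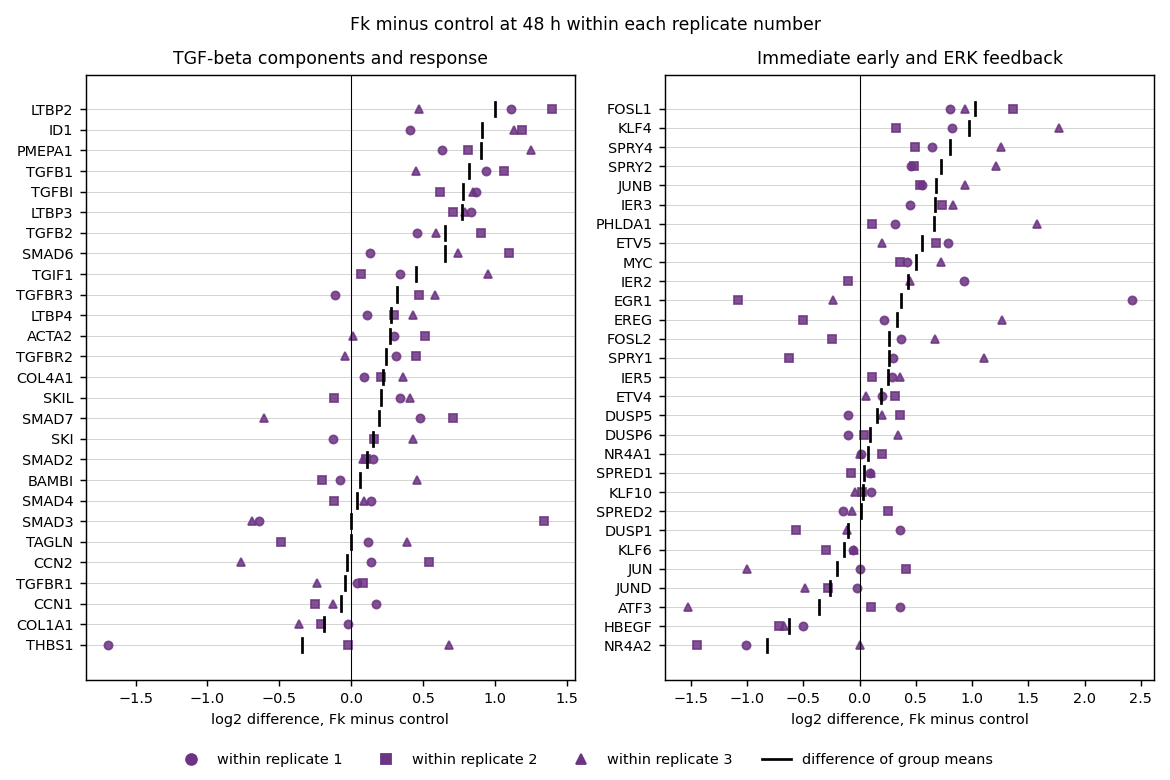
The x axis gives the log2 difference of Fk minus control at 48 h within each replicate number for the tested TGF-beta genes (left) and the immediate early and ERK feedback genes (right), with the black bar at the difference of the group means. Genes such as PMEPA1, LTBP2, FOSL1 and KLF4 lie to the right of 0 in every number, while SMAD3 and EGR1 span it widely.

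In the cell cycle lists, leaving out 1 array moved the medians widely. Of 41 DNA replication genes, 37 had a log2 fold change below 0, with a median of -0.21, and 16 had a negative difference within every number (15.9% of all genes). The groups overlapped for all 41. The median was -0.34, -0.08 and -0.14 within replicates 1, 2 and 3, but it was -0.43 without Fk replicate 3 or control replicate 1, 0.12 without Fk replicate 1 and 0.03 without control replicate 3. With 1 array left out, its replicate number remains in 1 group only, and why this median turned its direction was not tested. The helicase loader CDT1 had differences of -0.89, -0.21 and -0.49 and the helicase subunit GINS4 -0.66, -0.44 and -0.32. FEN1, a flap endonuclease, had a log2 fold change of -0.41, and RFC5, a clamp loader subunit, -0.38 with 0.30 to 0.38 from its other probe sets. Mitosis genes had a median of -0.03 over 35, from -0.31 without Fk replicate 3 to 0.30 without Fk replicate 1, with CDC25B at 0.26 and BUB3 at -0.19. G1 cyclins and CDK inhibitors had a median of 0.03 over 18, and CDK6, a G1 kinase, had 9.88, 10.30 and 10.49 against 9.20, 9.43 and 9.50 (0.84 ± 0.19). CDKN1C, a CDK inhibitor, had -0.36 ± 0.14, with -0.04 to 0.09 from its other probe sets. Ribosome biogenesis had a median of -0.03 over 24, with NOP58 at -0.25.

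Medians of the stress lists ran from -0.12 to 0.17. The unfolded protein response had a median of 0.03 over 23 genes, and 0.06, 0.06 and 0.08 within replicates 1, 2 and 3. Leaving out Fk replicate 3 or control replicate 3 moved it to 0.61 and -0.40, although the within-number values were alike. ERO1A, an oxidase of protein folding and also a HIF target, had 0.32 and CALR, a chaperone, -0.27. ATF4 targets had a median of 0.05 over 35 (-0.08 without Fk replicate 1 and 0.19 without Fk replicate 3), with the leucine transporter SLC7A5 at 0.49 ± 0.15 and the serine synthesis enzyme PHGDH at 0.41 ± 0.16. Heat shock proteins had a median of -0.12 over 19, 15 of them below 0 (-0.06 without Fk replicate 3 or control replicate 1). The co-chaperone DNAJB6 read 7.58, 7.33 and 7.60 against 7.92, 7.98 and 8.12 (-0.50 ± 0.13), and HSPB8, a small heat shock protein, had -0.45 ± 0.13. NRF2 targets had a median of 0.05 over 22, with OSGIN1 at 0.97 ± 0.30 and the pentose phosphate enzyme TKT at 0.32. The p53 list had a median of 0.17 over 21 (0.10 without Fk replicate 1, Fk replicate 2 or control replicate 1). Of these genes 16 were above 0, among them PLK3 at 1.08, and 5 below, among them TP53I3 at -0.37. Apoptosis regulators had a median of 0.08 over 20, with PMAIP1 at 0.37 and MCL1 at 0.31 (-0.19 to 0.04 by its other probe sets), and core autophagy 0.03 over 28, with ULK1 at 0.84 ± 0.37 and ATG9A at 0.49. The glucocorticoid list had 0.07 over 11, with ERRFI1 at 0.43 ± 0.13, and the circadian clock list 0.05 over 14, with BHLHE40 at 0.45 and PER3 at 0.23.

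Immune lists had medians of -0.12 over 26 interferon response genes and 0.05 over 18 NF-kB and cytokine genes. Within replicates 1, 2 and 3 the interferon median was 0.08, 0.07 and -0.33, and it was 0.11 without Fk replicate 3, while the NF-kB median ran from -0.03 to 0.17 with 1 array left out. The RNA sensor RIGI had 8.49, 8.31 and 8.28 against 8.81, 8.61 and 8.56 (-0.30 ± 0.13), with -0.14 to 0.05 from its other probe sets, and IFI44L, an interferon-induced gene, had differences of 0.88, 2.15 and 0.08. The chemokine CXCL2 had 10.53, 11.03 and 11.11 against 10.21, 10.34 and 10.34 (0.60 ± 0.18), LIF, a cytokine of the interleukin 6 family, 0.56, and TNIP1, which restrains NF-kB, 0.26. Among tubular injury genes, with a median of 0.07 over 23, the adhesion molecule VCAM1 had 5.48, 5.50 and 6.05 against 5.16, 4.58 and 5.09 (0.74 ± 0.23). HAVCR1, which encodes KIM-1, a standard urinary injury marker, had differences of -0.82, 0.03 and -0.26, and KRT20, a keratin of injured tubules, -1.04, 0.02 and -2.57. CD44, a hyaluronan receptor, had 0.57, 0.46 and 0.65.

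Drug transporters had a median of -0.09 over 9 genes, 7 below 0, with -0.04 without control replicate 1 and -0.15 without control replicate 3. ABCC3, an export pump and 1 of the 2 genes above 0, had differences of 0.86, 1.71 and -0.06. The FKBP and cyclophilin immunophilins, the binding proteins of immunosuppressant drugs, had a median of 0.02 over 21 genes, 11 above and 10 below 0. FKBP10, a collagen-folding isomerase, had 6.38, 6.25 and 5.84 against 5.99, 5.53 and 5.53, FKBP8 had a log2 fold change of 0.30, FKBP1A 0.08 and FKBP5 -0.02. Calcineurin, RCAN and NFAT genes had a median of 0.04 over 13. RCAN1, a calcineurin inhibitor and NFAT target, had differences of 0.33, 0.56 and -1.36, RCAN3 0.53, 0.96 and 0.59, and the calcineurin-binding CABIN1 0.31, 0.25 and 0.20. Metallothioneins and zinc handling had a median of 0.19 over 18 (15 above 0), with the zinc exporter SLC30A1 at 0.28 and the importer SLC39A1 at -0.23. Lysosome and proton pump genes had a median of -0.07 over 31. ATP6V0D2, a pump subunit of specialised cells, read 4.20, 5.32 and 5.45 in Fk and 2.62, 3.6 and 2.69 in control (2.02 ± 0.42). Every control array lay below the filter level, and the Fk mean lay 0.99 above it. This gene entered the test only through its Fk arrays at 48 h, where it is high, so the separation of its groups is partly selected. The protease CTSB had 0.43 ± 0.12 and ATP6V1C1 -0.30 ± 0.11. The inhibin, activin and GDF list had a median of 0.14 over 13 (0.31 without Fk replicate 2 and 0.22 without control replicate 2). FSTL3, an activin antagonist, had 7.93, 7.92 and 8.37 against 7.08, 7.45 and 7.66 (0.68 ± 0.21), and GDF15, a stress cytokine, differences of 0.16, 0.17 and 1.02.

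With 1 array left out, the median turned its direction in 17 of the 40 lists. Besides DNA replication, mitosis, the unfolded protein response, ATF4, interferon and NF-kB, these were LXR targets, fatty acid oxidation, iron handling, immunophilins, NRF2 targets, autophagy, glucocorticoid targets, the circadian clock, G1 cyclins, ribosome biogenesis and oxidative phosphorylation. Leaving out 1 array leaves its replicate number in 1 group only. Same-numbered arrays of replicates 1 and 3 shared deviations (correlations of 0.798 and 0.606). These turns therefore cannot tell an unstable Fk difference from a shift between replicate numbers, which was not tested. Some values above also depend on the probe set. Other probe sets gave opposite signs or spanned 0 for NPC1 (-0.16), CABIN1 (-0.03), BUB3 (0.01 to 0.23) and CALR (-0.11 to 0.38). They gave a smaller size for FZD7 (0.89), CAVIN2 (-0.57) and FKBP8 (0.14), and a wide range for CTSB (0.03 to 0.41), ABCC3 (0.09 to 1.07), ETV5 (0.12 to 0.99), ITGB3 (0.06 to 0.55), ITGB5 (0.24 to 0.98) and TKT (0.24 to 1.30). They gave a larger size for ABCA1 (0.40), BHLHE40 (0.77) and ATP6V1C1 (-0.63 to -0.34), and up to 0.55 for ERO1A.

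**Figure D5:**
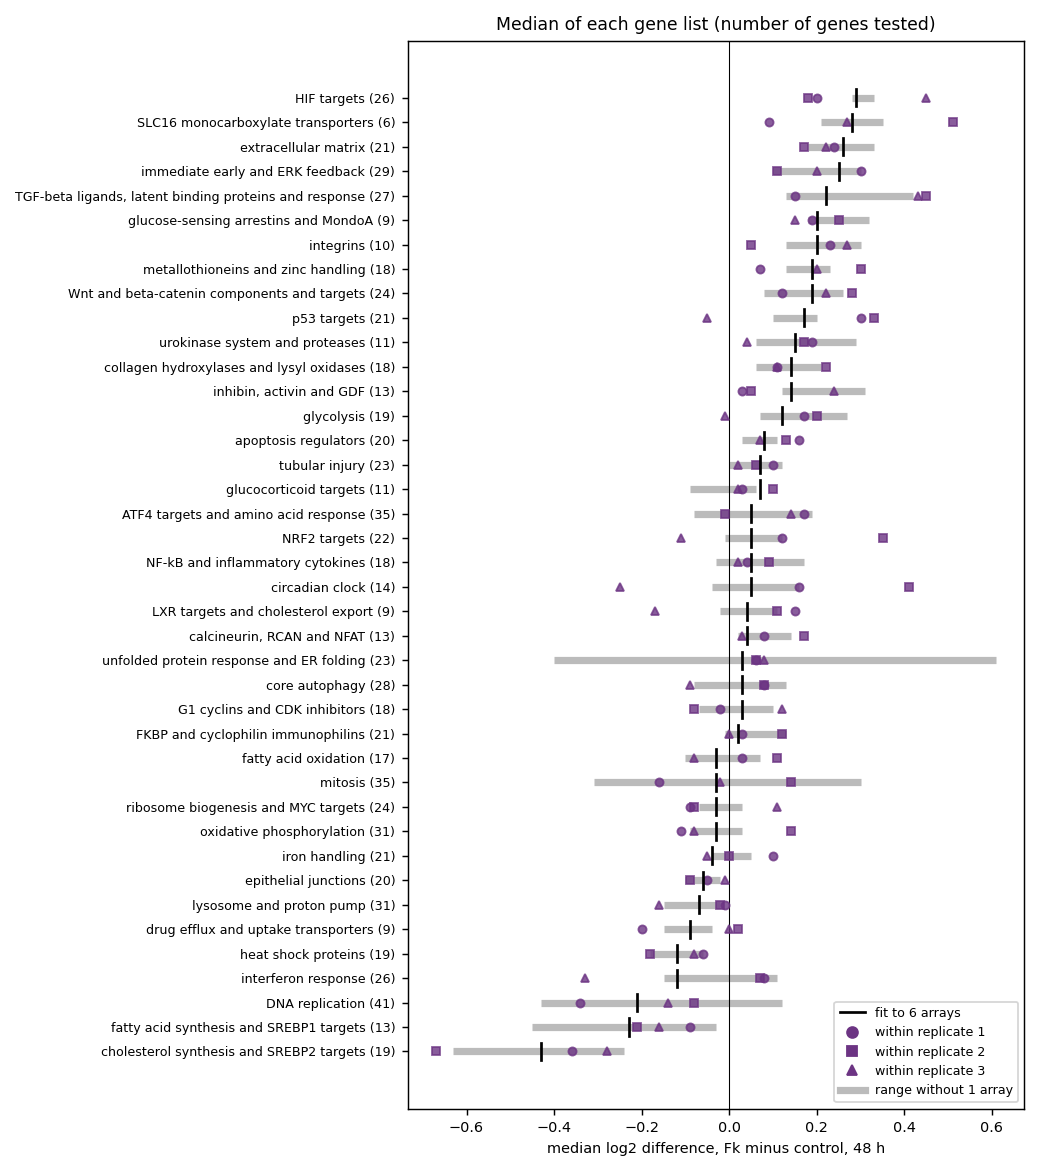
Each row is 1 of 40 gene lists, with the number of genes tested in parentheses, and the x axis gives the median log2 difference of Fk minus control at 48 h; the black bar is the fit to 6 arrays, the markers are the medians within each replicate number and the grey band is the range when 1 array is left out. HIF targets head the lists at 0.29 with a narrow band of 0.28 to 0.33, cholesterol synthesis is last at -0.43, and the unfolded protein response has a band from -0.40 to 0.61 around markers near 0.06.

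At 12 h the same genes had other values. For SLC16A14 the log2 fold change at 12 h was 4.23, or 2.91 without Fk replicate 3 of that time. SLC2A1 stood at -0.15 (-0.26 without that array), ADORA2B at -0.35 (-0.15), TFRC at -0.32 (-0.29), MVK at 0.43 (0.29), CA12 at 0.40 (0.89) and ZBED2 at -1.18 (-1.03). The list median at 12 h was 0.27 (0.28) for HIF targets and 0.13 (0.29) for cholesterol synthesis. In the test of the difference between the effects at the 2 times, 0 of 10784 genes passed an adjusted p of 0.05 (limma), 357 had an unadjusted p under 0.05 (3.31%), and without Fk replicate 3 at 12 h the numbers were 0 and 474 (4.4%). No gene of this comparison is therefore shown to respond differently at 48 h and at 12 h. For SLC2A1 the difference was 1.25 with an adjusted p of 0.332 in the 11 arrays without that array.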

How the data were processed

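RNA of HK-2 cells was measured on 12 one-colour Affymetrix arrays, and the 6 arrays at 48 h are compared here. Deposited values are log2 GCRMA signals per probe set, made by the authors with GCRMA per the submitters' processing notes. Its version, and which arrays were normalized together, are not given in the sources used here. GCRMA corrects background from probe sequence, and signals near the floor carry little information. Of 54675 probe sets, 41097 carry 1 gene symbol in the platform annotation, 1801 several and 11777 none, and 41043 matched RefSeq. Each gene was represented by its probe set of highest mean over the 12 arrays among those naming 1 gene, and tested where it reached log2 4 on at least 3 arrays. limma 3.58.1 in R 4.3.3 fitted a mean per group to the 6 arrays and moderated it with eBayes (4 residual and 2.14 prior degrees of freedom). Tests were two-sided, adjusted by Benjamini-Hochberg over all 10784 genes, with a threshold of 0.05. The difference between times was fitted to 12 arrays. The gene test was also run on simulated data with independent noise on each array. Deviations shared by same-numbered arrays were not simulated, so that run does not cover them. The number of arrays limits the precision.

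Genes named are the 12 largest differences in each direction among genes whose arrays did not overlap, whose difference was at least 0.3 within every replicate number and whose higher group reached log2 5 on its 3 arrays. Also named are the 5 smallest p in each direction, up to 4 genes per list with an unadjusted p under 0.05 (or else up to 2 genes of smallest p) and 12 fixed genes. Of the genes of smallest p, ZNF552 had a log2 fold change of -0.81 and belongs to no list. Members of lists named beyond that rule were picked with their values in view. The members, lists and rule were chosen with earlier results of these data known, and list counts and medians are descriptions. In all, 19 other settings were tried, 6 of them leaving out 1 array. They changed the arrays in the fit, the replicate block, the filter, the probe set, the normalization, the moderation or the array weights. Figures were drawn with matplotlib 3.10.9.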

Additional observations from a re-analysis of the deposited data

Results flagged for a closer look

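Of the genes named above, 4 differed between Fk and control in opposite directions at 48 h and at 12 h, on every array. These 4 had been named for their values at 48 h. The same count over all tested genes is not given, so how common such a pattern is remains unknown. CEP19, a centrosomal protein, stood at -1.06 at 48 h and 0.74 at 12 h (0.13 without Fk replicate 3 of that time), a difference between the times of -1.80. JUP, plakoglobin, stood at -0.38 and 0.41 (0.45 without that array), a difference of -0.80. VCAM1, an adhesion molecule, stood at 0.74 and -1.07 (-0.64 without it), a difference of 1.81. CXCL2, a chemokine, stood at 0.60 and -1.66 (-0.88 without it), a difference of 2.26. None passed the test of that difference, with an adjusted p of 0.996 for each in limma over 12 arrays. Without Fk replicate 3 at 12 h, which stood apart from the other arrays, the differences were -1.19, -0.83, 1.38 and 1.48, with adjusted p of 1.0, 0.777, 1.0 and 0.954. Groups of 3 arrays were not searched for single outlying arrays.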

How the results depend on the processing

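The number of genes with an adjusted p under 0.05 was 1 as reported. It was 0 with all 12 arrays, with a replicate block within time, without a filter and without probe sets that can bind several transcripts (where SLC16A14 has no probe set left), 0 when any 1 array was left out, and 67 with array weights. Those weights were 9.48 for Fk replicate 2, 2.08 for control replicate 2 and 0.383 to 0.652 for the others, and their estimation stopped before it converged. Under the weights 21 of the named genes passed that did not pass as reported. For SLC16A14 the adjusted p was 0.353 with the block within time. Genes with an unadjusted p under 0.05 numbered 905 in 11 arrays, 983 with the block within time, 2845 with array weights and 322 to 757 with 1 array left out. Genes without overlap numbered 1610 to 2578 and those with 1 direction in every number 768 to 1357 with 1 array left out, where fewer arrays have to be separated. With a minimum of 0 or 0.5 in place of 0.3, the last count was 3879 or 145 instead of 430. Same-numbered arrays of Fk and control had correlations of 0.798, -0.025 and 0.606 between their deviations from the group means. Replicates 1 and 3 thus shared deviations, and replicate 2 did not. The main fit took no account of the replicate number, and differences within a number are descriptions beside it. With a replicate block, 1300 genes had an unadjusted p under 0.05, and SLC16A14 was the 1 gene called (adjusted p = 0.0218). Of 1885 values of named genes under other settings, 1849 kept their direction and side of the threshold, and 6 reversals touched 5 genes. All named genes but SLC16A14 did not pass as reported, so keeping their side mostly meant again not passing. Many had been picked for separated arrays or a small p in these data, so the count does not measure robustness. With the mean of probe sets NPC1 stood at -0.033, CALR at 0.002, RFC5 at 0.097 and BUB3 at 0.004. Without probe sets that can bind several transcripts COL6A2 stood at -0.134 and CALR at 0.379. Of 760 list medians, 98 moved beyond the spread between replicates. With 3 arrays per group, a gene's difference below about 0.44 log2 units lay within its median 95% interval.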
